A study of Mus musculus with 3 samples.

Results

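Saa3, Acod1, Slc7a11, Hcar2, Ptgs2, Clec4e, Asprv1 and Tnfaip2 are 8 genes that myeloid cells switch on in inflammation. Their transcripts were followed in single immune cells of the infrarenal aorta of mice, the stretch of the abdominal aorta past the kidney arteries. The 8 were picked by symbol from the 32285 genes counted, with earlier results of these data known, for their levels in neutrophils against macrophages and monocytes. Those levels are therefore a description, and no test was made with them. Cells were kept where at least 200 genes were detected and at most 10% of the unique molecular identifiers (UMIs, the molecules counted) were mitochondrial. Neutrophils were the kept cells with at least 100 UMIs of S100a8 plus S100a9 per 10000 UMIs. Macrophages and monocytes, called phagocytes here, were the kept cells below that limit with at least 1 UMI of Csf1r, the receptor for the growth factor M-CSF.

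All mice were wild type, and cells carrying the leukocyte antigen CD45 were enriched with beads. The Sham aortas were given phosphate-buffered saline (PBS). The AAA_14 aortas were given elastase, an enzyme that digests the elastic fibres of the vessel wall and produces abdominal aortic aneurysm (AAA). The remaining library has the title AAA_7, but the treatment recorded for it is PBS. Its treatment is therefore unsettled, and AAA_7 is used here only as the name of the library titled so. The labels do not say what 7 and 14 count, and age and sex are not used here. Aortas of a group were pooled, 20 for AAA and 50 for control, and the number for AAA_7 by itself is not given. Each group is thus 1 library, no difference has a replicate check, and the intervals printed are 95% intervals that cover counting error only.

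Neutrophils are short-lived granulocytes that leave the marrow with granules already filled and switch on a further set of genes once they reach inflamed tissue. Several of the 8 genes are well-known targets of Toll-like receptor and NF-kB signalling in myeloid cells. Acod1 makes itaconate from an intermediate of the citric acid cycle, and Slc7a11 is the cystine carrier of system xc-, which feeds glutathione synthesis. Ptgs2 (COX-2) makes the precursor of prostaglandins, and Hcar2 is a receptor for butyrate, beta-hydroxybutyrate and niacin. Clec4e (Mincle) is a C-type lectin that senses microbial glycolipids and a protein of dying cells. Saa3 is an inducible serum amyloid A made outside the liver, Tnfaip2 is a TNF-induced protein linked to membrane nanotubes, and Asprv1 is a retroviral-like aspartic protease known from skin and from neutrophils.

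On the mouse assembly GRCm38 the genes lie on separate chromosomes, except for Clec4e and Asprv1, which are both on chromosome 6. Their annotated spans are chr7:46711998-46715700 for Saa3, chr14:103046977-103056573 for Acod1, chr3:49892526-50443614 for Slc7a11, chr5:123863570-123865499 for Hcar2, chr1:150100031-150108227 for Ptgs2, chr6:123281789-123289870 for Clec4e, chr6:86628164-86629710 for Asprv1 and chr12:111442469-111455018 for Tnfaip2. RefSeq promoter windows of GRCm38.p6 matched 7 of the 8 symbols, and Hcar2 was not matched. The 250 bases before each RefSeq start were searched on both strands for 5 short motifs. The letters TTNNGCAA, a core bound by C/EBP factors of the myeloid lineage, were found in 4 of the 7 windows and in 9.56% of all 32851 windows of that length. These 4 windows are shown 5′ to 3′ on the gene's strand, with motif matches in capitals, since they hold every match of the C/EBP-type core and of the amino acid response element core among the genes:
Saa3 (chr7:46715677-46715926, minus strand): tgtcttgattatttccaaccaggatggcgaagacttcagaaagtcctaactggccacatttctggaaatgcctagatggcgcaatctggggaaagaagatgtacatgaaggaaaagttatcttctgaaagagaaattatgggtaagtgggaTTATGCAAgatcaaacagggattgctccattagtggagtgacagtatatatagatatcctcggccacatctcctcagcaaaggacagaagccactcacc
Slc7a11 (chr3:50443614-50443863, minus strand): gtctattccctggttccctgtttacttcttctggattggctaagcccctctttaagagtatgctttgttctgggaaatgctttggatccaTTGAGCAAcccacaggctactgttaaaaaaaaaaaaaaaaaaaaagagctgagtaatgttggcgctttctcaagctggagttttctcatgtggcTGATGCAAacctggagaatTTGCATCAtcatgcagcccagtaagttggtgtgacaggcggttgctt
Ptgs2 (chr1:150099781-150100030, plus strand): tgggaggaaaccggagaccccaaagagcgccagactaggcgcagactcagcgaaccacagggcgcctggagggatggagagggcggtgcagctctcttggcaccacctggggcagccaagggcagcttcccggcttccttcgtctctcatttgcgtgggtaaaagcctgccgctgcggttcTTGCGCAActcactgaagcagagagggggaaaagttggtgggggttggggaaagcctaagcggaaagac
Clec4e (chr6:123289872-123290121, minus strand): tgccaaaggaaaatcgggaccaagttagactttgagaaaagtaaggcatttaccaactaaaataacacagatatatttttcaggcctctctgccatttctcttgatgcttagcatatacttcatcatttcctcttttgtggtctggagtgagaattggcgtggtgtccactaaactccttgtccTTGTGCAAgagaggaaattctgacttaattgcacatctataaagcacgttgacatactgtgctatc
The Slc7a11 window also held TGATGCAA, the core of the amino acid response element, once on each strand, without overlap with its C/EBP-type match. That core was found in 0.791% of all windows. The kB motif was matched once each in the windows of Asprv1 and Tnfaip2 and in 7.25% of all windows. The antioxidant response element core TGACNNNGC was matched in Tnfaip2 and in 10.2% of all windows, and the AP-1 motif TGANTCA in 0 of the 7 and in 6.75% of all. A match describes the letters in the window and is not evidence of binding.

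The files held 13677839 UMIs in 3785 barcodes for Sham, 13341534 in 3496 for AAA_7 and 67243700 in 10108 for AAA_14. The mitochondrial limit removed 65.4%, 6.98% and 46.9% of barcodes, and with the limit of 200 genes 1235, 3229 and 5286 cells were left. Neutrophils numbered 111, 685 and 796, with medians of 3951, 1785 and 4517.5 UMIs. Phagocytes numbered 19, 846 and 1373, so that the 19 Sham phagocytes are given as UMIs and not compared. Of the 8 neutrophil markers listed, 8 were detected in the neutrophils of each library, at a summed level of 26821, 9632 and 17759 CPM. CPM is the UMIs of a gene summed over the cells of a class in a library, scaled to a class total of 1000000 UMIs. The 9 macrophage markers summed to 79.5, 3083 and 1244 CPM there, with C1qa, C1qb and C1qc at 0 in Sham, against 19426 and 19926 in AAA_7 and AAA_14 phagocytes. The part of this macrophage signal in the neutrophil values was not tested. The 8 neutrophil markers were detected in AAA_7 and AAA_14 phagocytes too, at 276 and 237 CPM, so detection alone does not separate the classes. Retnlg, Mmp8, Mmp9 and Ly6g were lower in AAA_7 than in Sham neutrophils, with Ly6g in 4.96% and 55.9% of cells. Csf3r, Cxcr2, Il1r2 and Hdc were higher. Kept cells of 2 libraries shared 1 barcode for Sham and AAA_7, 3 for Sham and AAA_14 and 8 for AAA_7 and AAA_14.

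Within each aneurysm-titled library, 7 of the 8 genes were higher in neutrophils than in phagocytes, and Saa3 was lower. The count is fixed in part by the choice of genes: at least 2-fold higher levels in neutrophils were found for 10.9% of 11388 genes in AAA_7 and 9.24% of 13510 in AAA_14, and at least 2-fold lower ones for 35.7% and 39.6%. Asprv1 was at 1017 CPM in AAA_7 neutrophils and 273 in those of AAA_14. In phagocytes it was at 15.1 CPM (84 UMIs) and 2.90 CPM (48 UMIs), near its level in B cells of 9.97 CPM (13 UMIs) and 2.56 CPM (33 UMIs), so no fold is read against them. Hcar2 was 37.7-fold and 25.9-fold higher in neutrophils, Acod1 30.5-fold and 18.0-fold, and Slc7a11 18.2-fold and 22.8-fold. In AAA_7 phagocytes Hcar2, Acod1 and Slc7a11 were at 36.9, 173 and 145 CPM, against 6.90, 26.1 and 11.5 in B cells. In AAA_14 they were at 13.8, 58.9 and 22.0 CPM, nearer to the 7.91, 27.8 and 10.2 of B cells. How far such levels bear on the folds was not tested. The differences were smaller for Tnfaip2 (9.47-fold and 4.17-fold), Clec4e (7.77-fold and 7.29-fold) and Ptgs2 (3.15-fold and 4.53-fold). Phagocytes, which outnumbered neutrophils and were deeper, held 41.2% of all Ptgs2 UMIs in AAA_7 and 32.5% in AAA_14, and neutrophils held 39.9% and 49.3%.

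**Figure D1:**
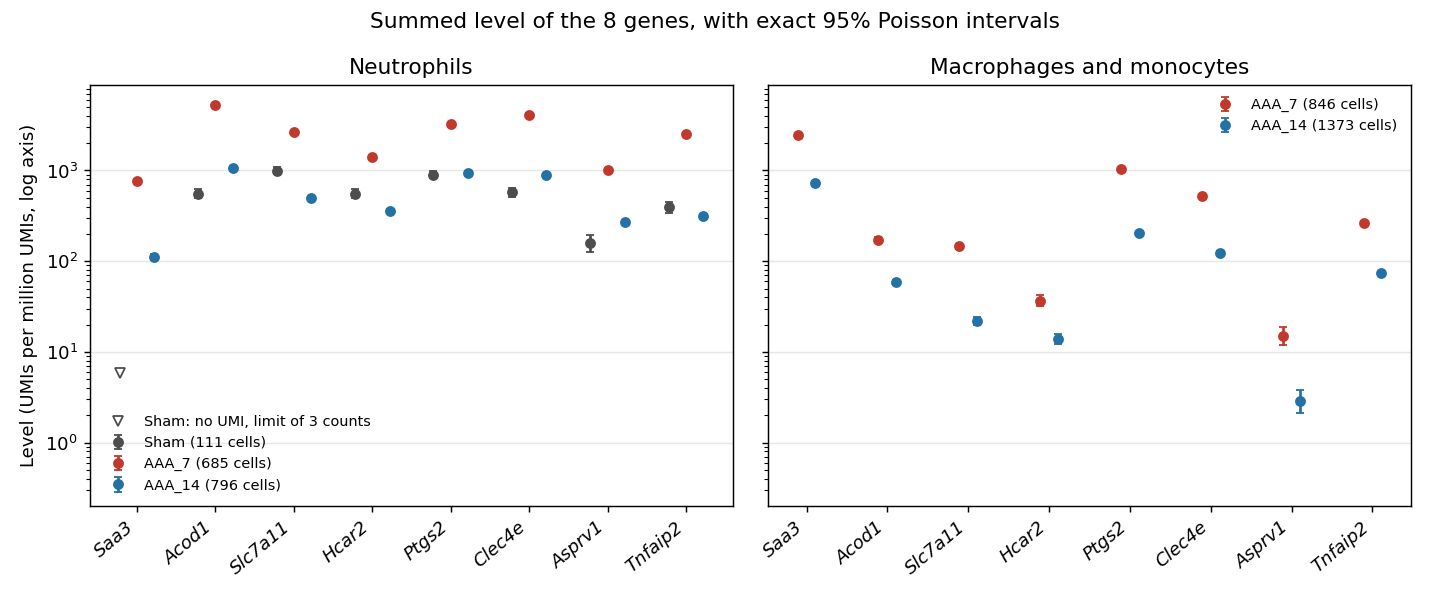
Level of each gene, in CPM on a log axis, in the neutrophils (left) and in the macrophages and monocytes (right) of each library. Points are sums over the cells of 1 library and bars are exact 95% Poisson intervals. In neutrophils the AAA_7 point is above the AAA_14 point for each gene, and the open triangle marks Saa3 in Sham, where 0 UMIs were counted and the limit of 3 counts is 5.82 CPM.

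Saa3 went the other way. In AAA_7 it was at 2433 CPM in phagocytes and 765 in neutrophils, 3.18-fold lower in the latter, and in AAA_14 at 728 and 111, 6.56-fold lower. In AAA_14, 1 neutrophil held 73.4% of the neutrophil Saa3 UMIs. Without the top cell of each class the AAA_14 levels were 622 and 29.5 CPM. Phagocytes held 72.0% of the Saa3 UMIs of AAA_7 and 87.6% of those of AAA_14, and neutrophils 6.95% and 4.48%. In Sham, 1 Saa3 UMI was counted in all kept cells, in a B cell. None was found in the 111 neutrophils, which allows a share of up to 2.70% of cells with a UMI.

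Among the enzyme and carrier genes, Acod1 was the most widely detected in neutrophils of the library titled AAA_7. The level of Acod1 was 555 CPM in the Sham neutrophils, 5282 CPM in those of AAA_7 and 1062 CPM in those of AAA_14. A UMI of Acod1 was found in 50.5%, 94.9% and 63.9% of neutrophils, and in 31.8%, 90.7% and 46.6% once each cell was thinned to 1000 UMIs, which left out 1, 62 and 10 shallower neutrophils. In thinned T cells the Acod1 share was 0.282%, 3.79% and 0.843%, so the neutrophil shares were far above that of a cell type that should lack the gene. AAA_7 stood apart from the other two libraries in both measures. Slc7a11 was at 991, 2646 and 502 CPM, and its thinned share was 55.5%, 78.7% and 42.4% (79.3%, 86.0% and 68.7% before thinning). Here Sham lay above AAA_14 in level and in share.

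Ptgs2 was at 902, 3288 and 935 CPM in Sham, AAA_7 and AAA_14 neutrophils, with thinned shares of 42.7%, 72.6% and 41.7%. The Sham and AAA_14 levels lay close together, and both lay below AAA_7. The receptor gene Hcar2 was at 556, 1394 and 359 CPM, with thinned shares of 41.8%, 65.3% and 35.0%. Clec4e was at 574, 4086 and 897 CPM, and its thinned share of 43.6% in Sham and 50.9% in AAA_14 reached 87.8% in AAA_7. Tnfaip2 was at 396, 2505 and 311 CPM, with thinned shares of 29.1%, 75.8% and 31.2%. Asprv1 was at 157, 1017 and 273 CPM and was the least often detected of the 7, in 18.2%, 43.7% and 21.1% of thinned neutrophils. Before thinning, the shares of these 5 genes ran from 27.9% to 68.5% in Sham, 51.4% to 93.9% in AAA_7 and 36.1% to 83.4% in AAA_14.

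The lymphocyte classes give the background for these shares, since RNA free in the cell suspension enters every droplet. In thinned B and T cells the highest share of any of the 7 genes was 6.46% in AAA_7, for Ptgs2 in T cells, 1.90% in AAA_14, for Acod1 in B cells, and 0.563% in Sham, for Slc7a11 in T cells. Median depths before thinning were 2823 UMIs for AAA_7 T cells and 6125 for AAA_14 T cells. Saa3 was different. Its thinned share in AAA_7 neutrophils, 14.4%, was close to the 10.7% of B cells and 11.9% of NK cells and above the 5.79% of T cells. In AAA_14 it was 1.53% in neutrophils, 0.439% in B cells and 0.281% in T cells. Before thinning, Saa3 was found in 23.9% of AAA_7 and 5.53% of AAA_14 neutrophils.

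**Figure D2:**
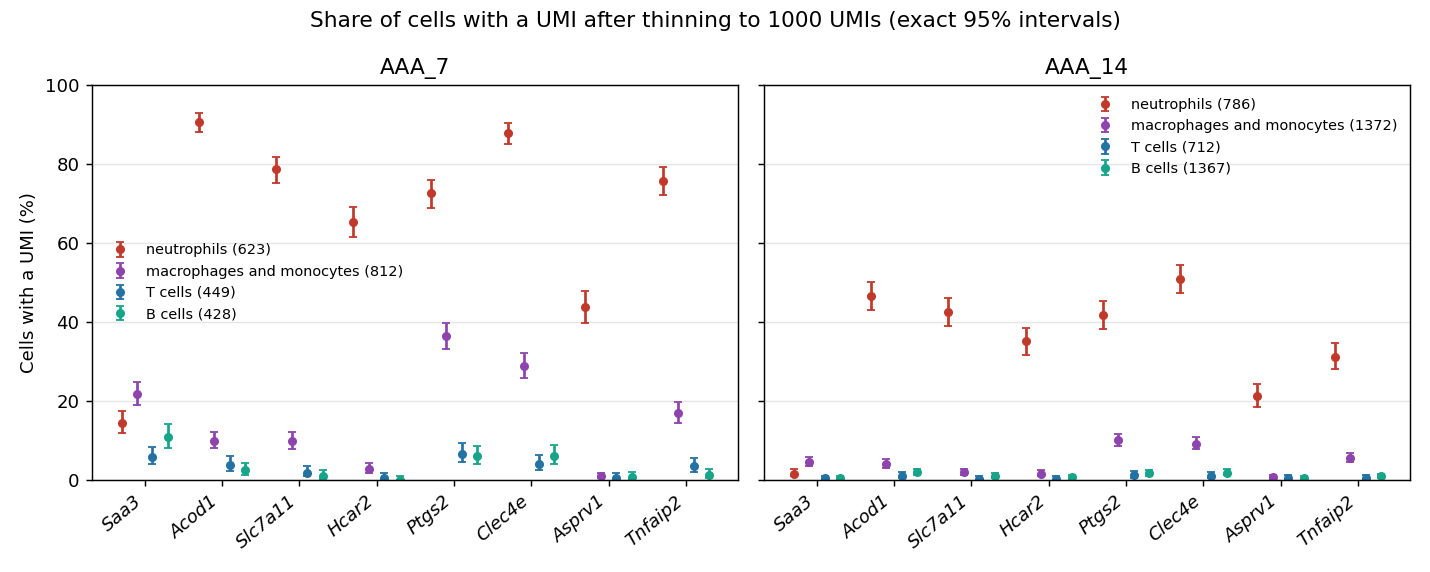
Share of cells with a UMI of each gene, in percent, after each cell was thinned to 1000 UMIs, in AAA_7 (left) and AAA_14 (right), with exact 95% intervals and the number of thinned cells in the legend. Neutrophils lie above the other classes plotted for 7 genes, from 43.7% to 90.7% in AAA_7 and from 21.1% to 50.9% in AAA_14, and Saa3 is highest in macrophages and monocytes.

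Between AAA_14 and Sham, the comparison whose titles and treatment labels go together, 7 of the 8 genes differed by less than 2-fold in neutrophils. Saa3 was at least 2-fold higher and no gene was at least 2-fold lower, beside 25% and 5.31% of 10613 genes. The Saa3 difference, 616 UMIs against 0, was at least 19.1-fold with the limit of 3 counts for Sham, but 1 cell held 73.4% of those UMIs, and without it the AAA_14 level was 29.5 CPM. The log2 ratio was 0.94 (0.77 to 1.11) for Acod1, 0.79 (0.48 to 1.14) for Asprv1 and 0.64 (0.48 to 0.82) for Clec4e. It was below 0 for Slc7a11, at -0.98 (-1.12 to -0.84), Hcar2, at -0.64 (-0.81 to -0.45), and Tnfaip2, at -0.35 (-0.56 to -0.13). Ptgs2 was at 0.05 (-0.09 to 0.19), and its sign turned in 5 of 17 alternative settings. Slc7a11 was at least 2-fold lower in 5 of the 17 settings (down to -1.55 with a mitochondrial limit of 5%), Hcar2 and Tnfaip2 in 1 each, and Acod1 was at least 2-fold higher in 5. The median over all genes was 0.27.

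In AAA_7 against Sham, 8 of the 8 genes were at least 2-fold higher in neutrophils, beside 29.5% of 8301 genes, whose median log2 ratio was 0.37. None of the 8 was at least 2-fold lower, beside 9.32%. The genes were chosen with this contrast in view, so nothing is read from the count. Saa3 was at least 131-fold higher, with 1307 UMIs against 0, but 26 of the 685 AAA_7 cells held 83.1% of them. In B cells, a background class, Saa3 was at 0.833 CPM (1 UMI) in Sham and 76.7 in AAA_7. Acod1 was 9.51-fold higher (log2 ratio 3.25, 3.08 to 3.43), Clec4e 7.11-fold, Asprv1 6.44-fold and Tnfaip2 6.32-fold. Ptgs2 was 3.64-fold, Slc7a11 2.67-fold and Hcar2 2.50-fold higher. From AAA_7 to AAA_14 the 8 genes were at least 2-fold lower, beside 12.5% of 11095 genes. Tnfaip2 was 8.05-fold lower (log2 ratio -3.01), Slc7a11 5.27-fold, Acod1 4.97-fold and Clec4e 4.55-fold. Saa3 was 6.90-fold lower, but 1 cell held 73.4% of its AAA_14 UMIs. Without the top cell of each library Saa3 was at 646 CPM in AAA_7 and 29.5 in AAA_14, so no rank is given to it. Hcar2 was 3.89-fold, Asprv1 3.72-fold and Ptgs2 3.52-fold lower. These 3 comparisons share libraries and are not independent of each other.

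The libraries differed in how many neutrophils carried secondary granule transcripts, and the levels of the 7 genes other than Saa3 were lower in such cells in each library. Neutrophils with at least 20 UMIs of Camp, Ltf and Ngp, granule proteins made during maturation in the marrow, per 10000 were called granule-rich, a limit set after the data had been seen. They made up 48.6% of Sham neutrophils (54 cells), 3.94% in AAA_7 (27 cells) and 28.9% in AAA_14 (230 cells). In Sham, Acod1 was at 124 CPM in granule-rich and 1372 in granule-poor neutrophils, Ptgs2 at 109 and 2407, and Clec4e at 320 and 1057. AAA_14 showed the same order for Acod1 (120 and 2007), Ptgs2 (112 and 1760) and Clec4e (330.0 and 1467). Slc7a11 differed less than Acod1 and Ptgs2, at 547 and 1833 CPM in Sham, 1242 and 2805 in AAA_7 and 180 and 825 in AAA_14. It was found in 64.8%, 77.8% and 54.3% of granule-rich cells. The share of Sham cells with a Clec4e UMI was 66.7% in granule-rich and 70.2% in granule-poor cells. These shares were not thinned, and granule-rich cells were deeper, so no order is read from them. Their median was 5692.5 UMIs against 2384 in granule-poor cells of Sham, 6095 against 1760 in AAA_7 and 9219.5 against 3500.5 in AAA_14.

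Among granule-poor neutrophils alone, 5 of the 8 genes were at least 2-fold higher in AAA_7 than in Sham, beside 30% of 7680 genes. The log2 ratio was 2.08 for Acod1 and for Clec4e, 1.65 for Asprv1, Tnfaip2 was at 2745 and 967 CPM, and Saa3 was again 0 in Sham. For Slc7a11, Ptgs2 and Hcar2 it was 0.61, 0.60 and 0.26 (0.07 to 0.47), under 2-fold. Between AAA_14 and Sham, Slc7a11 was at least 2-fold lower in granule-poor cells, at -1.15 (-1.32 to -0.98), beside 9.45% of 9315 genes. Hcar2 was at -0.96, Tnfaip2 at -0.89 and Ptgs2 at -0.45, while Acod1 stayed above 0 at 0.55, as did Clec4e at 0.47 and Asprv1 at 0.43. Between AAA_14 and AAA_7 the 8 genes were at least 2-fold lower in granule-poor cells too, beside 9.52% of 10215 genes, from -1.05 for Ptgs2 to -2.39 for Tnfaip2. Saa3 was at -1.95 there, with 74.7% of its AAA_14 UMIs in 1 cell. In granule-rich cells, 27 of them in AAA_7, that ratio was 0.08 for Ptgs2 and -0.86 for Clec4e. For the other genes it ran from -1.58 for Hcar2 to -4.34 for Saa3. Between AAA_7 and Sham it was -0.02 for Hcar2, -0.05 for Ptgs2 and 0.90 for Clec4e in granule-rich cells, and at least 1.18 for the others.

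**Figure D3:**
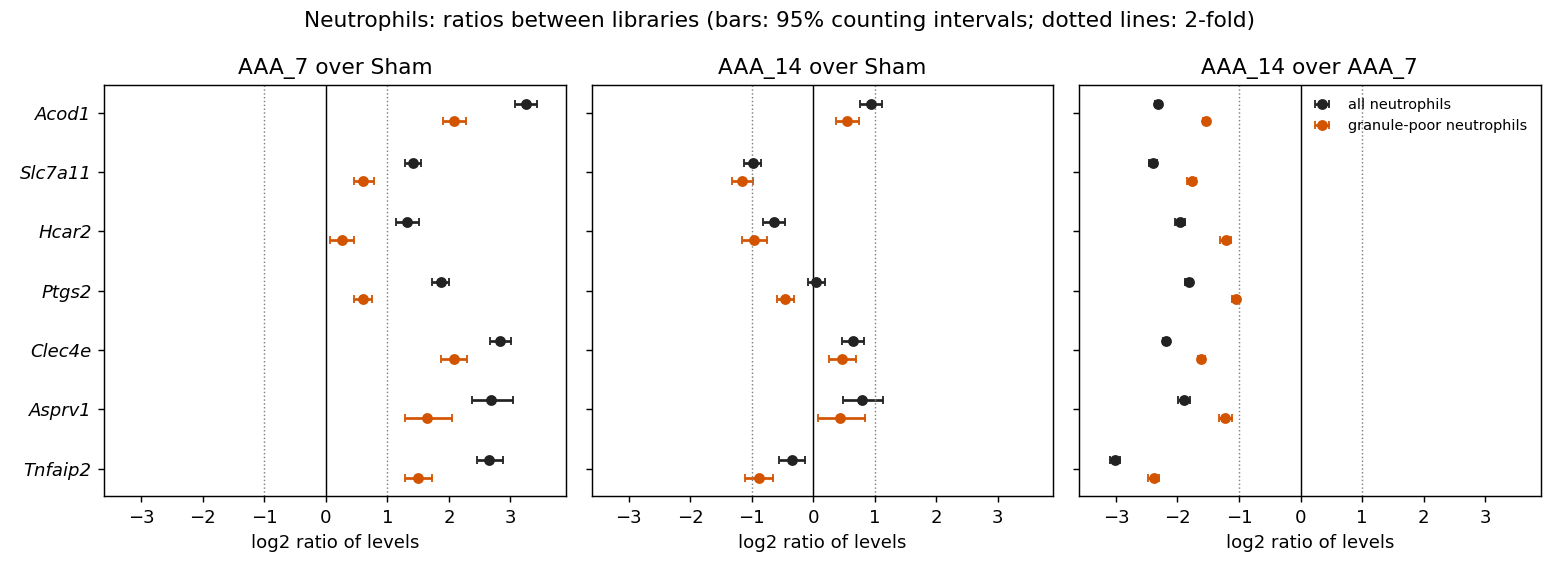
Log2 ratio of the neutrophil level of 7 genes between libraries, for all neutrophils (black) and granule-poor neutrophils (orange), with 95% counting intervals and dotted lines at 2-fold. Saa3 is left out because Sham had 0 UMIs. Against Sham, the granule-poor points lie to the left of the black points, with Hcar2 in AAA_7 moving from 1.32 to 0.26.

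Phagocyte levels were lower in AAA_14 than in AAA_7. The 8 genes were at least 2-fold lower, beside 3.94% of 13340 genes, whose median log2 ratio was 0.13. Slc7a11 went from 145 to 22.0 CPM, 6.61-fold lower, Asprv1 from 15.1 to 2.90, 5.19-fold lower, and Ptgs2 from 1043 to 206, 5.05-fold lower. The Asprv1 levels lie near those of B cells in the same libraries (9.97 and 2.56 CPM), so its difference is not read as one of the phagocytes themselves. Clec4e went from 526 to 123 CPM (4.27-fold), Tnfaip2 from 264 to 74.6 (3.54-fold), Saa3 from 2433 to 728 (3.34-fold), Acod1 from 173 to 58.9 (2.94-fold) and Hcar2 from 36.9 to 13.8 (2.67-fold). Hcar2 was at 6.90 and 7.91 CPM in B cells of these libraries, and the part of such levels in its difference was not tested. Neutrophil markers in phagocytes summed to 276 CPM in AAA_7 and 237 in AAA_14, and their part in the phagocyte values was not tested. In the 19 Sham phagocytes, 32 Ptgs2 UMIs were counted, 78.1% of them in 1 cell, 7 of Slc7a11, 6 each of Hcar2 and Tnfaip2, 5 of Clec4e, 3 of Acod1 and none of Saa3 or Asprv1.

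The phagocytes were not uniform in these genes. They were split by limits set after the data had been seen. The first group had at least 10 UMIs of C1qa, C1qb and C1qc per 10000, typical of mature macrophages. The other cells were divided into those with a UMI of the monocyte gene Ly6c2 and those without. In AAA_7, Saa3 was at 3295 CPM in the 565 C1q-high cells and 386 in the 149 Ly6c2 cells, whereas Clec4e was at 315 and 1214, Ptgs2 at 735 and 1923 and Slc7a11 at 69.9 and 319. In AAA_14 the order was the same for Saa3 (1007 in 861 and 75.3 in 325 cells) and, with smaller gaps, for Clec4e (111 and 155) and Slc7a11 (14.8 and 29.1). For Ptgs2 it was reversed, with 236 in C1q-high and 156 in Ly6c2 cells. The remaining cells, 132 in AAA_7 and 187 in AAA_14, had the highest Slc7a11 of the groups, at 346 and 42.8 CPM. Their Ptgs2 (1605 and 164) and Clec4e (784 and 117) lay between those of the other groups. Saa3 was at 247 and 697 CPM in them, with 95.1% of the AAA_14 UMIs in 1 cell.

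Saa3 came from a few cells with very high counts. In AAA_7, 111 of 846 phagocytes (13.1%) had 10 or more Saa3 UMIs, a limit set after the data had been seen, and held 96.4% of the phagocyte Saa3 UMIs. In AAA_14, 55 of 1373 (4.01%) held 97.9%. The highest count in 1 phagocyte was 1541 Saa3 UMIs in AAA_7 and 1748 in AAA_14. In neutrophils, 26 of 685 AAA_7 cells (3.80%) held 83.1% and 5 of 796 AAA_14 cells (0.628%) held 89.8%. Without such cells Saa3 was at 138 CPM in AAA_7 neutrophils and 103 in phagocytes, near the 76.7, 54.9 and 111 CPM of B, T and NK cells, and at 11.5 and 15.9 in AAA_14. Since the limit is on Saa3 itself, no order is read from what remains.

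Some of the Saa3-high neutrophils carried genes of other cell types. The AAA_7 cell with the most Saa3 UMIs, 203, had 46209 UMIs in all and 1212 of 6 adipocyte genes, 211 of them of Adipoq, the fat-cell hormone adiponectin. The other 25 had between 10 and 111 Saa3 UMIs, a median depth of 2126 UMIs and a median of 14 UMIs over the neutrophil genes Csf3r, Cxcr2, Il1r2, Hdc and Mmp9. Of the 25, 18 had no UMI of C1qa, C1qb or C1qc and 19 had none of Csf1r. Over all 26, the adipocyte-gene cell included, the 9 macrophage markers summed to 4031 CPM. In the 521 AAA_7 neutrophils without Saa3 they summed to 1344, and the part of macrophage RNA in the Saa3 counts was not tested. With the adipocyte-gene cell left out, Saa3 was at 664 CPM in AAA_7 neutrophils. In AAA_14 the top cell, with 452 Saa3 UMIs, had 980 UMIs of 6 fibroblast genes, 280 of them of the matrix proteoglycan gene Dcn. It passed the S100 limit at 120 per 10000. Adipocyte or fibroblast genes were carried by 6 of 512 AAA_7 and 114 of 1201 AAA_14 phagocytes without a Saa3 UMI. Among Saa3-high phagocytes, 4 of 111 in AAA_7 and 9 of 55 in AAA_14 carried them. The AAA_14 phagocyte of this kind with the most Saa3 UMIs, 1361, had 2245 UMIs of the 6 fibroblast genes. Without these cells Saa3 was at 2371 CPM in AAA_7 phagocytes and 611 in those of AAA_14. Whether such cells were doublets was not tested cell by cell.

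Set against the 521 AAA_7 neutrophils without a Saa3 UMI, those 25 cells were led by Bcl2a1d (log2 ratio 1.69, in 8 of the 25 cells), Klf7 (1.56, in 18) and Crip1 (1.43, with 41 UMIs in 1 cell). These are a description of cells picked by their Saa3, and the genes named next were chosen after their values were seen. The cytokine gene Tnf, further down the order, had 468 UMIs in 23 of the 25 cells (log2 ratio 1.32) and the feedback inhibitor gene Tnfaip3 221 in 23 (1.23). Tnfaip2 itself was found in 24 of the 25 and in 438 of the 521, with a log2 ratio of 1.14. Among phagocytes of AAA_7 the leading genes of the Saa3-high cells, without those carrying adipocyte or fibroblast genes, were Serpinb2, an inhibitor of plasminogen activation, and Cd5l, a secreted macrophage scavenger protein. Cd5l had 115 UMIs in 18 of 107 cells, against 13 UMIs in 10 of the 512 cells without Saa3. The lectin genes Cd209f and Cd209g followed (273 UMIs in 22 cells and 123 in 18). In AAA_14 the leading genes were Alox15 (199 UMIs in 6 of 46 cells) and Prg4 (334 in 6), a lipoxygenase and a lubricating proteoglycan, and Arg1, arginase, had 804 UMIs in 16 cells. Each of these phagocyte genes was found in a minority of the Saa3-high cells.

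**Figure D4:**
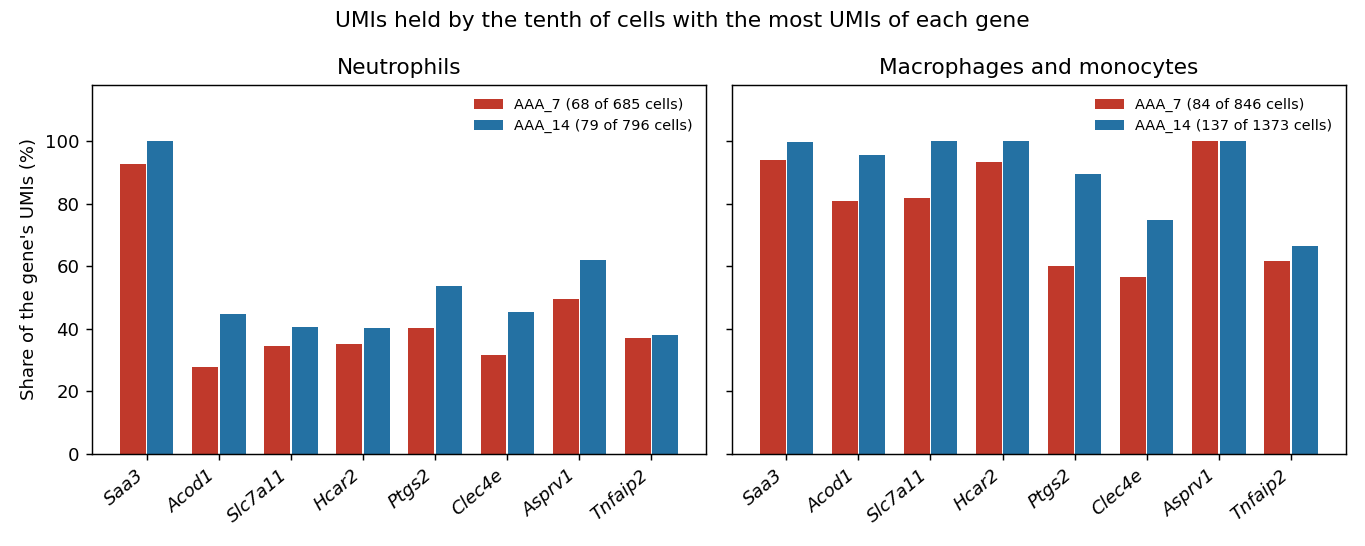
Share of the UMIs of each gene, in percent, held by the tenth of cells with the most UMIs of that gene, in neutrophils (left) and in macrophages and monocytes (right) of AAA_7 and AAA_14. In neutrophils Saa3 stands at 92.7% and 100% and the other 7 genes between 27.8% and 61.9%.

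The other 7 genes were spread over many neutrophils. The tenth of AAA_7 neutrophils with the most UMIs held 27.8% of the Acod1 UMIs, 31.5% of those of Clec4e and 49.4% of those of Asprv1, the most concentrated of the 7. In AAA_14 the range was 38.1% for Tnfaip2 to 61.9% for Asprv1. The cells were not equal in depth, whose part in these shares was not tested. No single neutrophil held more than 9.88% of the UMIs of any of the 7 genes in a library, a figure reached by Asprv1 in Sham on 81 UMIs.

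More of the 8 genes were detected per neutrophil than per phagocyte in AAA_7 and AAA_14. After thinning to 1000 UMIs, 4 or more of the 8 were detected in 38.2% of Sham, 88.1% of AAA_7 and 37.7% of AAA_14 neutrophils, with a mean of 2.63, 5.29 and 2.70 genes per cell. In phagocytes the mean was 1.27 in AAA_7 and 0.370 in AAA_14, and 6.53% and 1.38% of cells had 4 or more. In T cells of AAA_7 the mean was 0.261. Each mean is the sum of the single-gene shares, for genes chosen by their neutrophil levels. It therefore does not show whether the genes are expressed in the same cells. No gene of the 8 was found in 18.2% of Sham and 17.9% of AAA_14 neutrophils, against 0.963% in AAA_7. As a description across thinned cells of a library, Spearman's rho between pairs of the genes had a median of 0.33 over 21 pairs in Sham (110 cells), 0.21 over the same 21 pairs in AAA_7 (623 cells) and 0.30 in AAA_14 (786 cells). Acod1 with Ptgs2 was among the highest pairs in Sham (0.52) and AAA_14 (0.52) and lower in AAA_7 (0.24). Pairs with Saa3 lay between 0.03 and 0.09 in AAA_7, and Asprv1 with Tnfaip2 was at -0.04. The cells were thinned to equal depth but share the free RNA of their library, and such correlations in sparse counts are no finding.

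**Figure D5:**
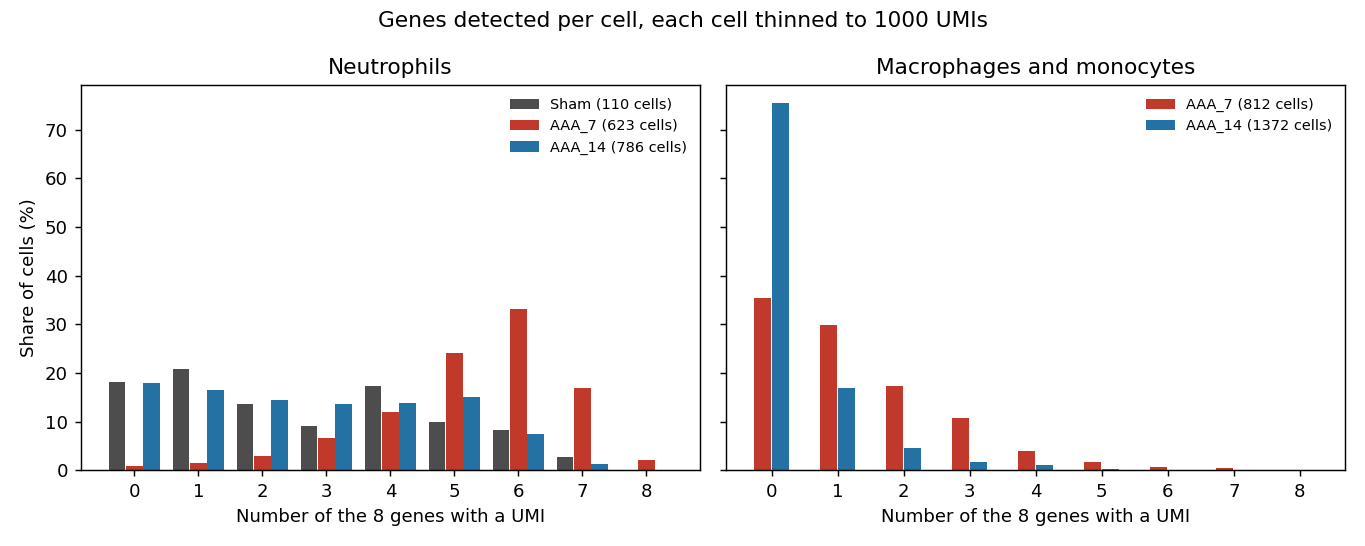
Share of cells, in percent, by the number of the 8 genes with a UMI after thinning to 1000 UMIs, for neutrophils (left) and macrophages and monocytes (right) of each library. The AAA_7 neutrophils peak at 6 genes (33.2% of cells), and 18.2% of Sham and 17.9% of AAA_14 neutrophils have 0.

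The S100 limit that defines neutrophils cuts through a range of cells. In AAA_7, Acod1 was at 3496 CPM in the 51 cells from 50 to 100 per 10000 and 3523 in the 100 cells from 100 to 200, and Clec4e at 3884 and 2951. In AAA_14, Acod1 was at 1689 in 46 and 2103 in 58 cells, and Clec4e at 2129 and 2142. Sham had 3 cells in each of these ranges. Acod1 was at 6963 CPM in AAA_7 cells from 500 to 1000 and at 4867 above 1000, and in AAA_14 at 2902 and 636.

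Genes of the same pathways were described by how many were at least 2-fold different, with lists chosen with earlier results of these data known. The counts stand beside the shares of all genes: 29.5% higher and 9.32% lower in AAA_7 than in Sham neutrophils, 25% and 5.31% in AAA_14 than in Sham, 12.8% and 12.5% in AAA_14 than in AAA_7, and 11.6% and 3.94% in AAA_14 than in AAA_7 phagocytes. In granule-poor neutrophils these shares were 30% and 12.1%, 24.8% and 9.45%, and 13.5% and 9.52% for the first 3 comparisons. Of 16 genes of the NF-kB pathway and its feedback, 16 were higher in AAA_7 than in Sham neutrophils, with a median log2 ratio of 2.73, against 0.37 for all genes, and 16 of 16 were higher in granule-poor cells (median 2.26). The adhesion gene Icam1 was at 4.18 (813 and 13 UMIs), Traf1, a TNF receptor adaptor, at 4.07 (527 and 9) and Nfkbie, an NF-kB inhibitor, at 3.44 (269 and 7). From AAA_7 to AAA_14, 15 of the 16 were lower in neutrophils (median -2.05) and 12 of 16 in granule-poor ones, while in phagocytes 2 of 16 were lower (median -0.19), namely Nfkbia at -1.48 and Tlr2 at -1.47. Against Sham, 7 of 16 were higher in AAA_14 neutrophils and 3 of 16 in granule-poor ones, led in all neutrophils by Traf1 at 2.02.

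Oxidative stress genes around Slc7a11 gave a split picture. Of 9 measured targets and regulators of NRF2, the main activator of antioxidant genes, 8 were higher in AAA_7 than in Sham neutrophils (median 2.05). They included Sqstm1, an autophagy receptor, at 3.80 and Hmox1, heme oxygenase, with 1102 UMIs against 41, and Srxn1 had 70 UMIs against 0. From AAA_7 to AAA_14, 6 of 10 were lower (median -1.53), with Sqstm1 at -3.12. In phagocytes 3 of 9 were lower, Nfe2l2 at -1.20, Sqstm1 at -1.14 and Hmox1 at -1.12. In granule-poor neutrophils 7 of 9 NRF2 genes were higher in AAA_7 than in Sham. Of 8 measured genes of system xc- and glutathione, 2 were higher in AAA_7 than in Sham neutrophils, and in granule-poor ones 2 were higher and 2 lower. The higher ones in all neutrophils included Gclc, a subunit of the rate-limiting ligase, at 1.68 (58 and 5 UMIs). In AAA_14 against Sham, 1 of 9 was at least 2-fold lower, Chac1, which degrades glutathione, at -1.49, and Slc3a2, the heavy chain that pairs with Slc7a11, was at -0.84. In granule-poor neutrophils 3 of 8 were lower. Of the genes around itaconate, 2 of 9 were higher in AAA_7 than in Sham, and in granule-poor cells 3 were higher and 1 lower.

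Among receptors and synthesis genes near Hcar2 and Ptgs2, 5 of 6 measured metabolite-sensing receptors were higher in AAA_7 than in Sham neutrophils (median 2.62), among them Gpr35 at 2.88 and Gpr84, a receptor for medium-chain fatty acids, at 2.37. The count was also 5 of 6 in granule-poor cells. From AAA_7 to AAA_14, 5 of 7 were lower in neutrophils. In phagocytes 3 of 8 were lower and 1 higher, the lower ones led by Adora2b, an adenosine receptor, at -2.83. Of the prostanoid and leukotriene genes, 3 of 11 were higher and 1 lower in AAA_7 than in Sham neutrophils, shares near those of all genes, with a median of 0.07. Lta4h, leukotriene A4 hydrolase, was at -2.07. In granule-poor cells 3 of 10 were higher and 0 lower, with a median of 0.57 against 0.25 for all genes. In phagocytes Ptges, the inducible prostaglandin E synthase, was at -2.61 from AAA_7 to AAA_14 (62 and 30 UMIs), and it was the 1 gene of 12 at least 2-fold lower. Of 3 measured prostaglandin receptors, 0 differed 2-fold in the 3 neutrophil comparisons.

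Of 10 C-type lectin and CARD9 genes, 3 were higher and 1 lower in AAA_7 than in Sham neutrophils, shares near those of all genes, and in granule-poor cells 4 were higher and 0 lower. Clec4n (Dectin-2) was at 3.87 and Clec4d, the partner receptor of Clec4e, at 2.09, and Clec4a1 had 91 UMIs against 0. From AAA_7 to AAA_14, Clec4n was at -2.60 and Clec4d at -2.19. Clec7a of this list and BC100530 of the stefin list were not matched by symbol. Of 5 measured serum amyloid and receptor genes, 3 were higher and 1 lower in AAA_7 than in Sham neutrophils, with the receptor Tlr2 at 2.46 and the granule gene Lcn2 at -2.30, and in granule-poor cells 3 were higher and 0 lower. Of 8 measured partners of Tnfaip2 in nanotubes and the exocyst, 0 were higher and 1 lower in AAA_7 than in Sham, Exoc3 at -1.23, and in granule-poor cells 2 were higher and 2 lower. Of 13 stefin and late neutrophil genes, 4 were higher and 4 lower there, and in granule-poor cells 3 and 4. Wfdc17 was at 2.66 and the granule collagenase gene Mmp8 at -2.85, and Stfa2 had 88 UMIs against 0.

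Across the 17 sums of at least 50 cells, 6 classes in 3 libraries without the Sham phagocytes, the 7 genes other than Saa3 had near-parallel profiles. Pearson's r of log2(level + 10) between pairs of the 7 had a median of 0.95 (0.81 to 0.98), and between Saa3 and each of the 7 a median of 0.62 (0.38 to 0.77). The genes were chosen for their neutrophil levels, which fixes these values in part, and the sums of a library share its depth and free RNA. Of 10987 genes searched, the profile most like that of Acod1 and of Slc7a11 was that of Il1r2, a decoy receptor for interleukin-1 (r 0.99 and 0.98), followed by Clec4d for both. Clec4d was also first for Tnfaip2 (0.99), ahead of Nlrp3, an inflammasome sensor. Asprv1 was closest to Il1f9 (1.00), interleukin-36 gamma, Sgms2 and Il23a. Ptgs2 and Clec4e had each other and Il1rn, the interleukin-1 receptor antagonist, among their 3 nearest. Hcar2 was closest to Ptgs2os2, Lilra6 and Trem1. Ptgs2os2 is an antisense gene of Ptgs2, and the strand setting of the counting is not given in the sources used here. Ccl8, a monocyte-attracting chemokine, and Cdkn1a, a cell cycle inhibitor, were among the nearest to Saa3 (0.96 each).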

How the data were processed

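The 8 genes, the pathway lists and the comparisons were chosen with earlier results of these data known. The deposited values are raw UMI counts, and per the file headers the authors ran Cell Ranger 6.1.2. Beside it, mm10 and Seurat are named, without a role, in the notes of the submitters on processing. The protocol in the labels gives droplet-based 3' chemistry. Of the annotation, the strand setting and any doublet removal, each is not given in the sources used here.

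From the counts, cells were filtered and gated as stated with the results (at least 200 genes, at most 10% mitochondrial UMIs). B, T and NK cells were gated on Cd79a, Cd79b and Ms4a1, on Cd3 genes and on Ncr1, Klrb1c and Klre1. The other cells were left unnamed. Levels (CPM) are the summed UMIs of a gene over the total of its class in a library. Intervals are exact Poisson for levels, Clopper-Pearson for shares and conditional binomial for log2 ratios with 0.5 counts added, all at 95%, and they cover counting error only. The limit for a count of 0 is 3 counts. Genes with at least 10 UMIs over both sums entered a comparison. With 1 library per group no test was made. For shares, cells were thinned to 1000 UMIs (seed 1). The ratio code was tested on simulated data.

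Named genes were the 8 genes, up to 3 genes per list with the largest absolute log2 ratio and at least 30 UMIs, the 3 genes nearest in profile among those with at least 200 UMIs, and markers. Of the genes nearest in profile, 1 is not reported here. The leading genes of Saa3-high cells, Adipoq, Dcn and the granule genes were picked after their values were seen. Scrublet in scanpy 1.11.5 called 0, 2 and 1 barcodes automatically in Sham, AAA_7 and AAA_14, which is too few to be used, so doublets were kept and removal of the highest scores (0.8% per 1000 barcodes) was an alternative. In all, 14 alternatives were planned and 3 were added after the data had been seen. Gene spans came from GENCODE M21 (GRCm38), which holds 99.8% of the gene identifiers in the files.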

Additional observations from a re-analysis of the deposited data

Results flagged for a closer look

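Barcodes removed by the mitochondrial limit, which no comparison above uses, carried the 8 genes in both aneurysm-titled libraries. Summed over the 8 genes, the level was 2857 CPM in the 244 such barcodes of AAA_7 (95% Poisson interval 2664 to 3060) and 793 in the 4739 of AAA_14 (779 to 807), against 34.7 in the 2476 of Sham (30.6 to 39.1). Of these barcodes, 2 in AAA_7, 258 in AAA_14 and 7 in Sham passed the S100 limit for neutrophils, and 78, 481 and 7 were phagocytes by Csf1r. Their part in the class levels was not tested beyond the alternatives without a mitochondrial limit.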

How the results depend on the processing

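Of 102 recomputed counts of genes past 2-fold (6 counts in 17 settings), 96 were within 1.5 times the reported count. The number of genes at least 2-fold higher in AAA_14 than in Sham neutrophils went from 1 to 2 with a mitochondrial limit of 20%, with no such limit, without the highest Scrublet scores, after thinning to 1000 UMIs and without the top cell of each gene. The number higher in AAA_7 than in Sham neutrophils went from 8 to 5 among granule-poor neutrophils. Of 816 recomputed log2 ratios of single genes, 517 moved by no more than counting error, 298 moved by more and 1 changed sign after a call, Saa3 in AAA_7 neutrophils over phagocytes, at 0.42 without cells with 10 or more Saa3 UMIs. That limit is on Saa3 itself, so its order is not read. The log2 ratio of AAA_14 over Sham changed sign for Ptgs2 in 5 of the 17 settings (range -0.92 to 0.34) and for Clec4e with a mitochondrial limit of 5% (-0.05), and Slc7a11 was at least 2-fold lower in 5 of 17 (lowest -1.55). From AAA_7 to AAA_14 the 8 genes were at least 2-fold lower in 17 of 17 settings in neutrophils and in phagocytes. Granule-rich neutrophils alone were not among the settings, and in them Ptgs2 (0.08) and Clec4e (-0.86) differed by less than 2-fold. No paired analysis was possible because each group is 1 library. The 111 Sham neutrophils and their 515757 UMIs limit the comparisons with Sham.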
